A study of Mus musculus with 6 samples.

Results

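Fibronectin and 9 matricellular glycoproteins were examined in cultured mouse aortic smooth muscle cells of 2 genotype labels. The 10 genes were taken by symbol from the 27179 gene rows of the deposited table. They are Fn1, Tnc, Postn, Tgfbi, Thbs1, Thbs2, Thbs3, Comp, Sparc and Sparcl1, and each had a single row. Messenger RNA was sequenced from 6 libraries of primary vascular smooth muscle cells of the aorta, 3 labelled WT and 3 labelled Bmal1 KO. Every culture had spent 7 days in a medium named diabetic condition medium, which held glucose at 4.5 g/L and hydrogen peroxide at 0.3 mM, so no library here shows either genotype without this treatment. The deleted Bmal1 allele, any Cre driver, and the strain, age and number of mice were not given in the sources used. Nothing in the labels ties a replicate to its own culture or animal, and p-values may therefore measure technical spread alone.

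Fibronectin is a large glycoprotein that cells assemble through integrins into fibrils, on which collagens and other matrix proteins are laid down. Matricellular proteins are secreted into the same matrix but mainly signal to cells, by binding integrins and other receptors, growth factors and proteases, rather than bear load. In the artery wall they are known for low levels in quiescent smooth muscle and for induction after injury and during remodelling. Thrombospondins, tenascin-C, periostin and SPARC are standard examples.

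The libraries differed widely between the labels. Recovered reads per library ran from 32503525 to 44657471. Bmal1, listed under its older symbol Arntl, measured 529, 619 and 590.3 normalized counts in WT and 1036, 941 and 1036 in the libraries labelled Bmal1 KO, so it was not reduced there. Counts over a whole gene do not show whether an exon is missing, so all directions here refer to the libraries labelled Bmal1 KO. Xist stood at 3842 to 3887 in these libraries and at 12.4 to 89.9 in WT, and the Y-linked Ddx3y at 68.5 to 82.5 and 2784 to 3314. Genotype label and sex-linked transcripts thus cannot be told apart in any result below. Smooth muscle markers were present in every library, with Acta2 between 19121 and 64724, although Myh11, the marker of mature smooth muscle, reached only 14.9 to 68.2 in WT and 259 to 291 in the libraries labelled Bmal1 KO. All 8 smooth muscle markers were higher in the latter past the threshold given below, as were 36.2% of all genes tested. In bulk samples fewer cells of a type and less RNA per cell cannot be told apart, here and in all results that follow.

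All 10 genes passed the filter on low values, which asked for 10 normalized counts in 3 or more libraries. Comp passed it only with the libraries labelled Bmal1 KO, where it was high, as its WT values were 12.8, 8.29 and 12.9. All 10 differed between the labels (limma on log2(value + 1), Benjamini-Hochberg adjusted over all genes tested, threshold 0.05). In the libraries labelled Bmal1 KO, 6 were higher (Postn, Comp, Thbs1, Sparcl1, Sparc and Tnc) and 4 were lower (Thbs2, Fn1, Tgfbi and Thbs3). Differences were common in this comparison, as 71.1% of the 16086 genes tested passed the same threshold, 36.2% higher and 34.9% lower. The 2 groups of libraries did not overlap for any of the 10 genes, which also held for 76.7% of all genes tested, 38.5% with the libraries labelled Bmal1 KO above WT and 38.2% below. Passing the threshold is thus common in this table and is not a result about the 10 genes as a set. A difference of at least 2-fold was seen in 7 of the 10 (5 higher, 2 lower) against 33.6% of all genes tested (20.6% higher, 13.0% lower), and one of at least 8-fold in 3 (Postn, Comp and Thbs1) against 5.43%. Fn1 only just met the 2-fold cut, at 2.02-fold lower. It fell short of that cut without WT replicate 2 (1.83-fold), WT replicate 3 (1.95-fold) or Bmal1 KO replicate 3 (1.96-fold). The median log2 fold change of the 10 genes was 1.00, beside -0.012 for all genes tested. The 10 genes were chosen with earlier results of these data known, so these contrasts describe them and do not test them as a set.

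**Figure D1:**
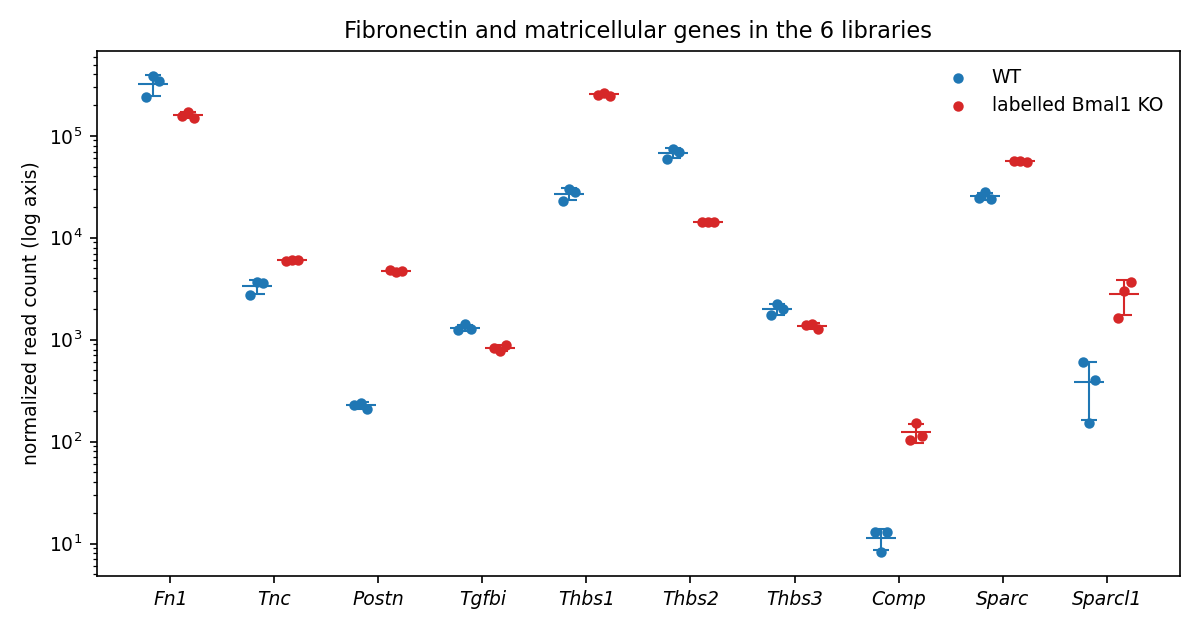
Normalized read count (log axis) of the 10 genes in each library. Points are libraries, horizontal marks are group means and bars are the SD (n = 3). Thbs1 and Thbs2 exchange places between the labels, and Sparcl1 has the widest spread within both groups.

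Fibronectin, the most abundant of the genes in WT, was lower in the libraries labelled Bmal1 KO. Fn1 (NCBI Gene ID 14268, chromosome 1, 71585473 to 71653280 in mm10) measured 239415, 384660 and 346028 normalized counts in WT replicates 1, 2 and 3, and 157890, 171866 and 149508 in Bmal1 KO replicates 1, 2 and 3. The groups did not overlap, but the WT libraries spread 1.61-fold from lowest to highest, with replicate 1 lowest. The mean fell from 323370 ± 75227 to 159750 ± 11295 (SD, n = 3), 2.02-fold lower (limma log2 fold change -0.99, SE 0.198, adjusted p = 0.00249). Leaving out WT replicate 1 gave 2.29-fold and leaving out WT replicate 2 gave 1.83-fold. Gene counts do not separate the splice forms of fibronectin.

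Tenascin-C, a hexameric glycoprotein that modulates adhesion to fibronectin, moved the other way. Tnc (chromosome 4, 63959785 to 64047015) measured 2743, 3721 and 3583 normalized counts in WT and 5961, 6115 and 6011 in the libraries labelled Bmal1 KO. Its lowest value in the latter was 1.60 times the highest in WT. The mean rose 1.80-fold, from 3349 ± 529 to 6029 ± 78.3 (SD, n = 3, log2 fold change 0.86, SE 0.112, limma adjusted p = 0.000267). Within each library, Tnc over Fn1 was higher by 1.85 on the log2 scale in the libraries labelled Bmal1 KO, at -6.45, -6.69 and -6.59 in WT against -4.73, -4.81 and -4.64. Such a ratio does not depend on how libraries are scaled to each other. With 3 libraries against 3 the exact two-sided permutation test cannot give a p below 0.1, which is the value found (0.1125 adjusted over the 9 gene pairs compared).

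Periostin showed the greatest rise of the 10 genes, and its close relative went down. Postn, which encodes a secreted fasciclin-domain protein that promotes collagen cross-linking, lies on chromosome 3 from 54359267 to 54391041. It measured 230.2, 241 and 208 normalized counts in WT and 4880, 4663 and 4757 in the libraries labelled Bmal1 KO. The values in each group lay close together, and the lowest in the second group was 19.3 times the highest in the first. The mean rose 21.04-fold, from 227 ± 16.9 to 4766 ± 109 (SD, n = 3, log2 fold change 4.39, SE 0.079, limma adjusted p = 1.65e-08). Tgfbi, the other fasciclin-domain gene, encodes a TGF-beta-induced protein that binds collagens and integrins (chromosome 13, 56609586 to 56639359). It measured 1254, 1416 and 1276 in WT and 833, 772 and 882 in the libraries labelled Bmal1 KO. Its mean fell 1.59-fold, from 1315 ± 87.6 to 829 ± 55.0 (SD, n = 3, log2 fold change -0.67, SE 0.084, limma adjusted p = 0.000234). Within libraries, Postn over Tgfbi rose by 5.06 on the log2 scale between the labels, from -2.53 ± 0.086 to 2.52 ± 0.084 (SD, n = 3, exact permutation p = 0.1, the smallest possible). Per kilobase of annotated exon, Tgfbi was 12.6 to 14.2 times the level of Postn in WT, whereas Postn was 2.34 to 2.62 times that of Tgfbi in the libraries labelled Bmal1 KO.

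The thrombospondins exchanged their leading member. Thbs1, whose trimeric product binds CD47 and CD36 and can activate latent TGF-beta (chromosome 2, 118111876 to 118127133), measured 23092, 30227 and 28060 normalized counts in WT. In the libraries labelled Bmal1 KO it measured 250551, 265433 and 247237, all far above WT. The mean rose 9.38-fold, from 27126 ± 3658 to 254410 ± 9692 (SD, n = 3, log2 fold change 3.24, SE 0.122, limma adjusted p = 3.74e-07). Thbs2, the other trimeric thrombospondin, which clears matrix metalloproteinases and restrains angiogenesis (chromosome 17, 14665500 to 14694262), measured 59404, 74810 and 69060 in WT. It measured 14253, 14161 and 14298 in the libraries labelled Bmal1 KO, a range of 1.01-fold, and the lowest WT value was 4.15 times the highest of these. The mean fell 4.76-fold, from 67758 ± 7785 to 14237 ± 69.6 (SD, n = 3, log2 fold change -2.24, SE 0.095, limma adjusted p = 6.89e-07).

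The pentameric thrombospondins were at lower levels. Thbs3 (chromosome 3, 89215180 to 89226841) measured 1756, 2222 and 1992 normalized counts in WT and 1403, 1432 and 1263 in the libraries labelled Bmal1 KO, a 1.46-fold fall of the mean from 1990.0 ± 233 to 1366 ± 90.0 (SD, n = 3, log2 fold change -0.54, SE 0.099, limma adjusted p = 0.00163). This was the least change of the 10 genes, and its lowest WT value was 1.23 times the highest in the other group. On the opposite strand the gene Mtx1, which encodes a mitochondrial import protein, shares 318 of the 4823 exon bases of Thbs3 in GENCODE M21. The strand setting used for counting is not given in the sources used here, so reads in the shared bases cannot be told apart. Mtx1 itself measured 1226 to 1455 in WT and 1086 to 1194 in the libraries labelled Bmal1 KO. The exons of Fn1, Tnc and Thbs1 share 292, 176 and 208 bases with genes on the opposite strand.

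Comp, the cartilage oligomeric matrix protein gene (thrombospondin 5, chromosome 8, 70373548 to 70382066), is known to help keep smooth muscle cells contractile in the artery. It was the scarcest of the 10 genes, with 12.8, 8.29 and 12.9 normalized counts in WT, from 14, 10 and 14 reads, and 103, 152 and 114 in the libraries labelled Bmal1 KO. The groups lay apart, and the mean rose 10.9-fold, from 11.3 ± 2.64 to 123 ± 25.9 (SD, n = 3, log2 fold change 3.33, SE 0.284, limma adjusted p = 2.76e-05). With a pseudocount of 10 in place of 1, which understates changes of low genes more, the log2 fold change was 2.63. The summed level of 8 cartilage cell markers moved the other way, from 2087 to 2224 in WT to 1463 to 1575. Of the 4 of them that could be tested, 1 was higher, 2 were lower and 1 did not pass. Over all genes tested, 36.2% were higher and 34.9% lower. Sox9 made up most of that sum, Acan stood at 2.76 to 13.7 and Col9a1 was at 0 in 3 of 6 libraries.

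**Figure D2:**
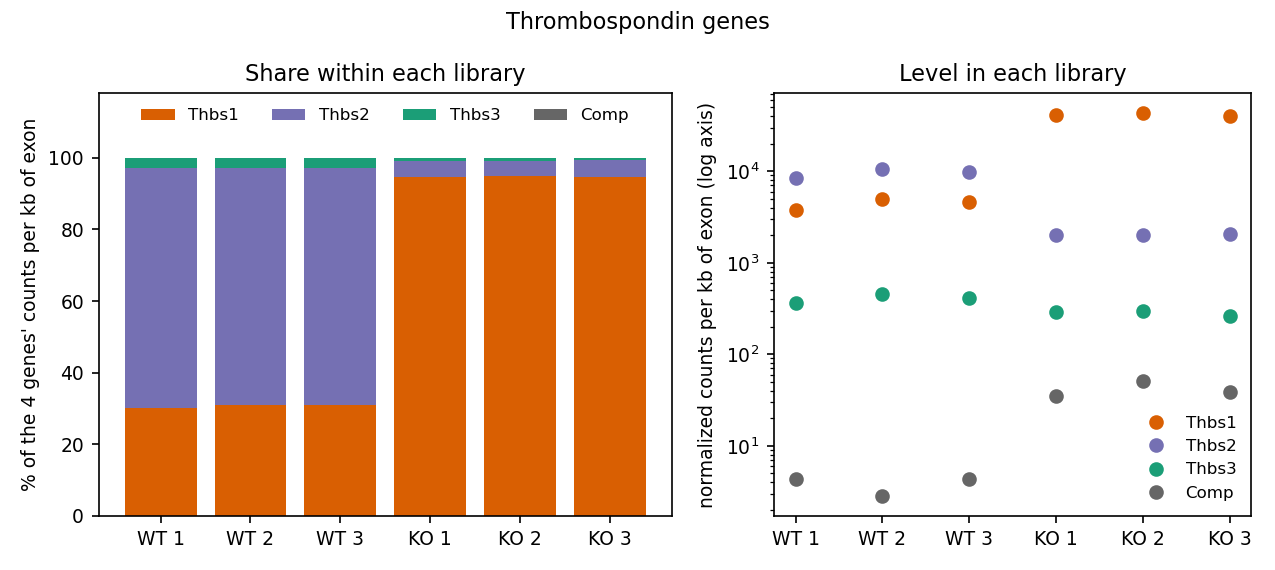
Left, each thrombospondin gene's percentage of the summed normalized counts per kilobase of exon of the 4 genes, by library. Right, the level of each gene in the same unit (log axis). KO marks libraries labelled Bmal1 KO. Thbs2 leads in the 3 WT libraries and Thbs1 in the 3 others.

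Per kilobase of annotated exon, Thbs2 accounted for 66.5% ± 0.473 of the 4 thrombospondin genes in WT and for 4.60% ± 0.186 in the libraries labelled Bmal1 KO, while Thbs1 accounted for 30.6% ± 0.519 and 94.7% ± 0.164 (SD, n = 3). Thbs2 was 2.13 to 2.23 times the level of Thbs1 in every WT library, and Thbs1 was 19.9 to 21.6 times the level of Thbs2 in every library labelled Bmal1 KO. On the log2 scale the ratio of Thbs2 to Thbs1 fell by 5.48 (exact permutation p = 0.1, n = 3 per group), and the ratio of Thbs3 to Thbs1 fell by 3.78. Comp over Thbs1 was an exception, with overlapping groups and a difference of 0.097 (exact permutation p = 0.9, n = 3 per group). The WT values of this ratio ranged from -11.67 to -10.7 and the others from -11.24 to -10.76. Of the 9 pairs, the other 8 had groups that did not overlap. The summed level of the 4 genes per kilobase was 12653 to 16123 in WT and 43053 to 46077 in the libraries labelled Bmal1 KO, 3.04-fold higher in mean.

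The 2 SPARC genes both rose, with very different spread. SPARC (osteonectin) is a collagen-binding glycoprotein that acts as a chaperone in collagen assembly, and Sparcl1 (hevin) is its relative. Sparc (chromosome 11, 55394159 to 55420080) measured 24541, 28010 and 24083 normalized counts in WT and 57010, 56702 and 55507 in the libraries labelled Bmal1 KO. The mean rose 2.21-fold, from 25545 ± 2148 to 56406 ± 794 (SD, n = 3, log2 fold change 1.15, SE 0.084, limma adjusted p = 1.25e-05). Sparcl1 (chromosome 5, 104079108 to 104114088) measured 597, 153 and 402 in WT, and 1638, 3036 and 3686 in the libraries labelled Bmal1 KO. The groups did not overlap, but libraries of the same group differed up to 3.89-fold in WT and 2.25-fold in the others, the widest spread of the 10 genes. The mean rose 7.26-fold, from 384 ± 222 to 2787 ± 1047 (SD, n = 3, log2 fold change 2.98, 95% confidence interval 1.84 to 4.12, limma adjusted p = 0.000939). The fold was 5.58 without WT replicate 2 and 10.04 without WT replicate 1.

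Markers of Schwann cells, the glia that sheathe peripheral nerves, ordered the libraries as Sparcl1 did. The summed level of 8 such markers was 1579, 1072 and 1336 in WT replicates 1, 2 and 3 and 2403, 3808 and 4127 in Bmal1 KO replicates 1, 2 and 3, the same order of the 6 libraries as that of Sparcl1. All 6 markers that could be tested rose, beside 36.2% of all genes tested, and none of the 8 was at 0 in any library. Sox10, the defining transcription factor of the lineage, measured 18.3, 4.98 and 11.1 in WT and 27.5, 81.5 and 71.97 in the others. Mbp was the most abundant of the list in both groups, at 987 ± 110.1 and 1944 ± 607 (SD, n = 3). Spock1, a distant SPARC relative, was also lowest in WT replicate 2 (39.0, against 140.3 and 101 in WT replicates 1 and 3) and reached 422, 775 and 727 in the libraries labelled Bmal1 KO. Sparc did not follow this order, being highest of WT in replicate 2. Sox10 and Spock1 were singled out after their values were seen, and the part of such cells in the Sparcl1 result was not tested.

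**Figure D3:**
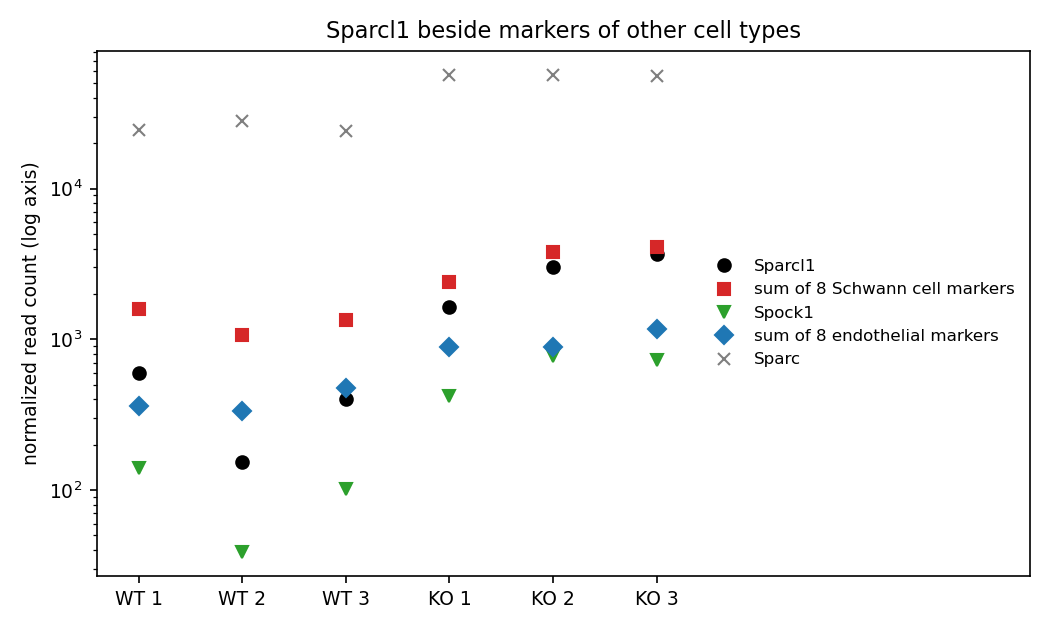
Normalized read count (log axis) of Sparcl1, Sparc, Spock1 and the summed Schwann cell and endothelial markers in each library. KO marks libraries labelled Bmal1 KO. Sparcl1 and both sums are lowest in WT replicate 2 and highest in Bmal1 KO replicate 3.

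Markers of other cell types also moved with the label. Their counts stand beside 36.2% higher and 34.9% lower over all genes tested. Endothelial cells are known to express Sparcl1. Their markers summed to 333 to 476 in WT and 890 to 1178 in the libraries labelled Bmal1 KO, with 7 of 8 higher and none at 0 in any library. Vwf was the most abundant of them in both groups, at 191 ± 24.6 and 275 ± 8.999 (SD, n = 3). Of 8 macrophage markers, 7 were higher and 1, Cd68, was lower (348 ± 54.3 and 74.0 ± 13.4, SD, n = 3). Their sum was 852 to 1115 in WT and 2002 to 2485 in the others, where Csf1r led at 893 ± 14.6. Fibroblast markers, which matter for Postn, Fn1 and Sparc because fibroblasts express all of these, split into 4 higher and 4 lower and summed to 41610 to 44238 and 31533 to 34322. Dcn, the most abundant in WT, fell 11.0-fold, and Ly6a, the most abundant in the libraries labelled Bmal1 KO, rose 4.98-fold. Mesothelial markers summed to 4025 to 5170 and 8091 to 11886, with 3 of the 7 tested higher, 4 lower and Muc16 at 0 in all WT libraries. Krt19 led in WT (2566 ± 591) and Msln in the others (4525 ± 132, SD, n = 3). The endothelial, macrophage and mesothelial sums, like the Schwann cell sum, were lowest in WT replicate 2 and highest in Bmal1 KO replicate 3, as Sparcl1 was. The endothelial and macrophage sums departed from the order of Sparcl1 only in that WT replicate 3 stood above WT replicate 1. The mesothelial sum departed from it only in that Bmal1 KO replicate 1 stood above Bmal1 KO replicate 2. The part of these cell types in the results for the 10 genes was not tested.

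Levels of different genes were compared per kilobase of annotated exon. In WT the order was Fn1 (27674 ± 6438), Thbs2 (9676 ± 1112), Sparc (6744 ± 567), Thbs1 (4467 ± 602), Tnc (431 ± 68.1), Thbs3 (413 ± 48.2), Tgfbi (349 ± 23.2), Sparcl1 (131 ± 75.7), Postn (26.0 ± 1.94) and Comp (3.82 ± 0.890), as normalized counts per kilobase (SD, n = 3). Values of Tnc overlapped those of Thbs3, and those of Thbs3 overlapped Tgfbi, so the order within this trio is within the spread. In the libraries labelled Bmal1 KO the order was Thbs1 (41891 ± 1596), Sparc (14891 ± 210), Fn1 (13672 ± 967), Thbs2 (2033 ± 9.94), Sparcl1 (949 ± 356), Tnc (776 ± 10.1), Postn (548 ± 12.5), Thbs3 (283 ± 18.7), Tgfbi (220 ± 14.6) and Comp (41.5 ± 8.71). There Sparc overlapped Fn1, and Sparcl1 overlapped Tnc. Thbs1 took the place of Fn1 at the top of the order.

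The summed reads of the 10 genes hardly differed between the labels. They came to 353044, 525467 and 474705 normalized counts in WT and to 494522, 524331 and 483263 in the libraries labelled Bmal1 KO, overlapping ranges with a ratio of means of 1.11 (exact permutation p = 0.5, n = 3 per group). Fn1 was the major part of this total in WT. Without Fn1, the other 9 genes summed to 127705 ± 13615 and 340951 ± 10075 (SD, n = 3), a 2.67-fold difference with no overlap (exact permutation p = 0.1, the smallest possible). The total also depended on length. Per kilobase of exon, the 10 genes summed to 40536 to 57371 in WT and 73310 to 78315 in the others, without overlap and 1.51-fold higher in mean. On that scale Fn1 made up 55.0% ± 3.88 of the sum in WT and 18.1% ± 0.665 in the libraries labelled Bmal1 KO, and Thbs1 8.99% ± 0.358 and 55.6% ± 0.158 (SD, n = 3).

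**Figure D4:**
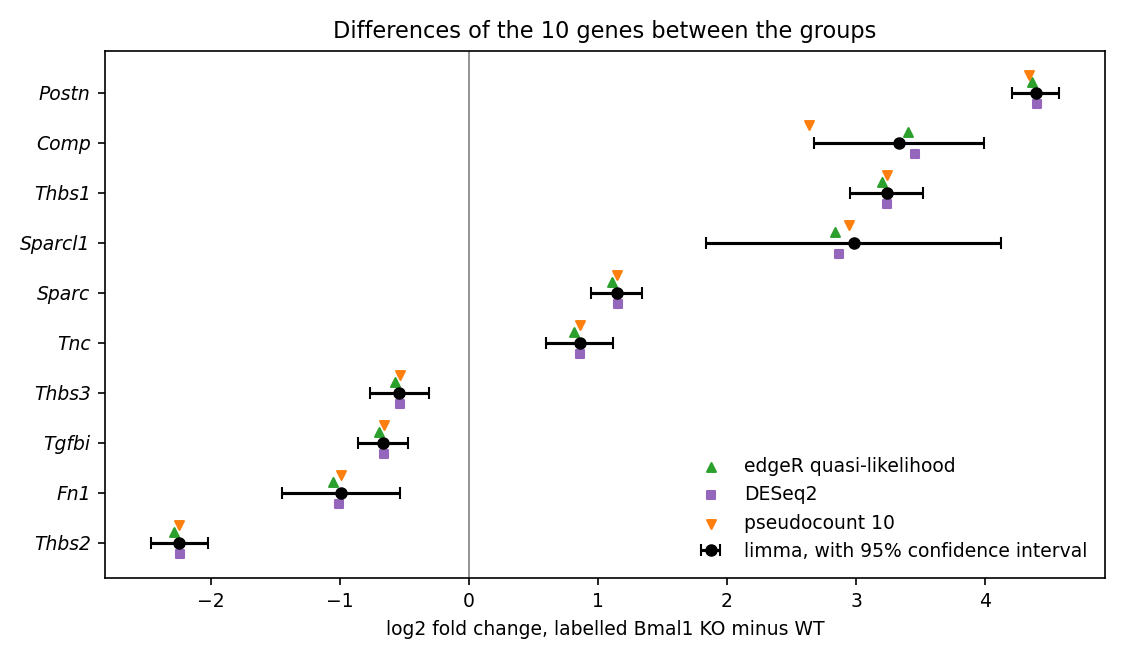
Log2 fold change of each gene, libraries labelled Bmal1 KO minus WT. Black points and bars are limma estimates with 95% confidence intervals, and coloured marks are estimates by edgeR, DESeq2 and limma with a pseudocount of 10. No interval includes 0, and Sparcl1 has the widest.

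RefSeq promoter windows (GRCm38.p6) were at hand for 6 of the 10 genes, in 8 windows. A Postn window and the Thbs2 window are shown, from the genes of greatest rise and greatest fall among the 6. Each covers the 250 bases before an annotated transcription start, Postn at chr3:54360857-54361106 on the plus strand and Thbs2 at chr17:14694263-14694512 on the minus strand. Capitals mark matches to the motifs searched.
Postn: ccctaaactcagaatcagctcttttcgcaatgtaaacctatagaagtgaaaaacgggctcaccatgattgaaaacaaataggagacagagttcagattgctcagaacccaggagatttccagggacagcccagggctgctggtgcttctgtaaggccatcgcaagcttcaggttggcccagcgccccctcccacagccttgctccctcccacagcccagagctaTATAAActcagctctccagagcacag
Thbs2: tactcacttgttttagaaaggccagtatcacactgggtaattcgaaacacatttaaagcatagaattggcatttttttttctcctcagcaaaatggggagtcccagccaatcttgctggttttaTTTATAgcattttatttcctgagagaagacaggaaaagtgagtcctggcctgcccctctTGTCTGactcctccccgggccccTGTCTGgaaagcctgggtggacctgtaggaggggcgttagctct

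Of the motifs searched on both strands, the Postn window shown held a TATA box (TATAAA) 26 to 21 bases before the start at 54361107. The other Postn window, before the start at 54359267 where the gene span given above begins, held no match. The Thbs2 window held the same letters on the other strand 126 to 121 bases before the start, and a pair of SMAD sites (CAGACA, seen here as its reverse complement) 67 to 62 and 44 to 39 bases before it. Matches in the windows shown did not overlap each other. CAGACA also lay in the Sparc window (36 to 31 bases before the start) and in a Tnc window (71 to 66 bases before the start at 64046936). Both Tnc windows, which overlap, held TATAAA. The Thbs3 and Tgfbi windows held no match. TATAAA occurs in 12.4% and CAGACA in 17.1% of the 32851 windows of the same length in the table. The E-box of CLOCK and BMAL1 (CACGTG), held by 6.02% of these windows, was in none of the 8. The letters TGANTCA (AP-1, 6.75%) and GGAATG (TEAD, 12.6%) and the CArG box of serum response factor (1.47%) were in none of the 8 either. A match of letters is not evidence of binding, and a window without one says nothing of sites elsewhere.

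Most close relatives of these genes also rose. Of 10 further tenascin, thrombospondin and SPARC-family genes, 9 rose and 1 fell, with a median log2 fold change of 2.21. Over all genes tested, 36.2% passed the threshold upward and 34.9% downward, with a median of -0.012. The same shares stand beside each list below, and no list was tested as a set. Tnn (tenascin-N) rose from 10.3 ± 3.32 to 737 ± 83.7 normalized counts (SD, n = 3), and Spock3 from 44.0 ± 33.8 to 349 ± 82.2. Tnxb (tenascin-X), which stabilises collagen fibrils, was the exception, falling 2.57-fold (log2 fold change -1.35, limma adjusted p = 4.77e-05). Fstl1 was the most abundant by reads and rose 2.09-fold. Thbs4 rose with few reads (8.90 and 24.5 in mean, limma adjusted p = 0.0219).

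Other matricellular genes and fibulins moved both ways. Of 16 genes, 8 rose, 4 fell, 3 did not pass and Ccn6 had too few reads to be tested (median log2 fold change 0.56). All genes tested also moved both ways, 36.2% up and 34.9% down. Ccn2, the connective tissue growth factor gene, rose 15.9-fold to 100050 ± 2052 normalized counts (SD, n = 3), and Mgp rose 12.5-fold. Fbln1, which encodes a fibulin that binds fibronectin, fell 8.64-fold, from 6103 ± 506 to 706 ± 19.9, and Ccn4 fell 2.74-fold.

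Genes of cell surface receptors for these proteins tended upward. The threshold was passed upward by 14 of 20 and downward by 3, beside 36.2% and 34.9% of all genes tested. The median of the 20 log2 fold changes was 1.28. Among integrin subunits, Itga8 rose 9.002-fold and Itga9, whose integrin binds tenascin-C, 8.15-fold, both from low levels (29.0 ± 9.06 and 59.2 ± 10.6 in WT, SD, n = 3). The receptor that assembles fibronectin is the pair of Itga5 and Itgb1. Itgb1, the most abundant receptor gene by reads in the libraries labelled Bmal1 KO, rose 3.28-fold, and Itga5 measured 8666 in WT and 34150 in the others in mean (log2 fold change 1.98, limma adjusted p = 7.23e-07). Itga5 was chosen after its values were seen. The thrombospondin-1 receptor genes Cd47 (2981 and 2831 in mean, limma adjusted p = 0.453) and Lrp1 (83805 and 97260, adjusted p = 0.216) did not pass. Cd36, whose product also binds thrombospondin-1, rose 3.38-fold at a low level (11.9 and 40.3 in mean, limma adjusted p = 0.00385). Cacna2d1 and Calr of the same list rose 3.07-fold and 1.65-fold. Cd47, Lrp1, Cd36, Cacna2d1 and Calr were also named after their values were seen. Notch3 fell 8.28-fold and Notch1 2.08-fold.

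Genes for assembly and processing of these proteins were also examined. The threshold was passed upward by 8 of 15 and downward by 1, with 6 short of it and a median log2 value of 0.21. The shares over all genes tested were 36.2% upward and 34.9% downward. Tll1, which encodes a procollagen-cleaving metalloprotease of the BMP1 family, rose from 21.2 ± 9.39 to 7233 ± 60.5 normalized counts (SD, n = 3), or 341-fold. Tgm2, the transglutaminase that cross-links fibronectin, rose 2.73-fold, and the lysyl oxidase gene Lox, most abundant of the list by reads, rose 2.48-fold. Mesd, a chaperone gene, fell 1.64-fold.

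Genes of TGF-beta signalling, which is known to induce several of the 10 genes, were divided. Upward calls numbered 5 of 14, downward calls 3, and 6 missed the threshold (median log2 value 0.057). All genes tested were divided too, with 36.2% called upward and 34.9% downward. Ltbp2, which encodes a latent TGF-beta binding protein of the matrix, rose 2.88-fold. Tgfbr3, the betaglycan gene, fell 3.75-fold, and Smad3, which carries the signal to the nucleus, fell 2.55-fold from 5414 ± 762 to 2124 ± 36.2 (SD, n = 3). The ligand gene Tgfb1 measured 3154 in WT and 2797 in the others in mean and did not pass (limma adjusted p = 0.0572). The other ligand genes of the list passed in opposite directions. Tgfb3 rose 1.48-fold (limma adjusted p = 0.000225) and Tgfb2 fell 1.38-fold (limma adjusted p = 0.00238). These ligand genes were also chosen after their values were seen.

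**Figure D5:**
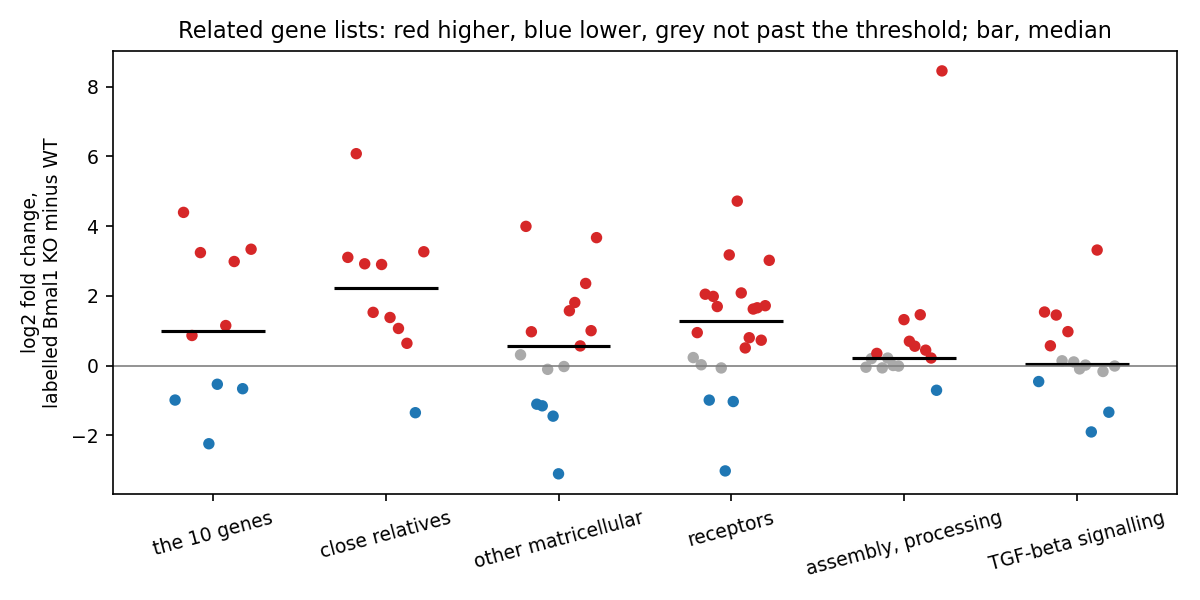
Log2 fold change (libraries labelled Bmal1 KO minus WT) of the 10 genes and of the genes tested in 5 related lists. Red points are higher, blue lower, grey did not pass the threshold of 0.05, and bars are medians. Close relatives have the highest median, 2.21, and TGF-beta signalling the lowest, 0.057.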

How the data were processed

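Trimmomatic, HISAT2, featureCounts and the mm10 build are named in the submitters' processing notes. The deposited table holds a signal per gene and library, read counts that the authors had divided by a factor per library, as read from the values. All values were whole multiples of a step per library (tolerance 0.01), and 0 columns stayed unmapped. Genes reaching 10 normalized counts in 3 or more libraries were tested with limma 3.58.1 (R 4.3.3, trend, pseudocount 1, group as the only term). A gene low in WT could pass this filter through the libraries labelled Bmal1 KO, as Comp, Tnn and Thbs4 did. Adjustment was by Benjamini-Hochberg over all genes tested. Fold changes on the log2(value + 1) scale understate low genes. Printed folds divide one group mean by the other. edgeR 4.0.16 and DESeq2 1.42.0 were run on recovered reads. Exon lengths are unions of GENCODE M21 exons. Replicates of a group differed by more than sampling noise.

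The members, lists and the rule for named genes were chosen with earlier results of these data known. The rule took all members, Arntl, up to 2 genes of greatest rise and 2 of greatest fall per related list (mean of at least 100), and the marker of highest mean per group. A gene that the rule names is not reported here. Xist, Ddx3y, Acta2, Myh11, Acan, Col9a1, Mtx1, Muc16, Fstl1, Thbs4, Ccn6, Itgb1 and Lox were named after their values were seen. Alternatives were other tests, scalings, pseudocounts, filters, a replicate block and leaving out each library.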

Additional observations from a re-analysis of the deposited data

How the results depend on the processing

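All 10 genes kept their direction and stayed past the threshold in each of the 16 alternatives (edgeR, DESeq2, voom, 2 other scalings, 2 pseudocounts, 2 filters, the replicate block and each library left out), with 6 higher and 4 lower every time. The log2 fold change of Fn1 ran from -1.19 to -0.85, that of Sparcl1 from 2.43 to 3.40 and that of Comp from 2.63 to 3.46. Over all genes, edgeR called 11479 and DESeq2 11267, against 11435 in limma. Other scalings moved the median log2 fold change of all genes from -0.012 to -0.042 (TMM) or 0.027 (upper quartile). Same-numbered replicates did not pair, with correlations of their deviations of -0.0045, 0.026 and 0.084, and the replicate block gave 11556 genes. The difference in Comp over Thbs1 turned to -0.61 with a pseudocount of 10, and ran from -0.18 to 0.30 with a library left out. The turns came without WT replicate 2 (-0.18) and without Bmal1 KO replicate 2 (-0.034). The log2 ratio of the summed reads, 0.15, ran from 0.0018 (without WT replicate 1) to 0.27, and was 1.42 without Fn1. Depth limits the precision for Comp, which had 38 reads in WT. With 3 libraries a group, no permutation test here could pass 0.05.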
